A study of Mus musculus with 27 samples.

Results

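Hepatocyte RNA of the inbred mouse strain NZO/HlLtJ was set against that of WSB/EiJ. The comparison used 6 of the 27 libraries of a study of 9 inbred strains, chosen by strain: the 3 NZO/HlLtJ libraries (biological replicates 1, 2 and 3) and the 3 WSB/EiJ libraries (biological replicates 2, 3 and 4). All were from female mice of 12 weeks, with liver as the tissue and hepatocytes as the cell type, and the labels name no treatment, transgene or engineered allele. Diet, body weight, the hour of collection and whether animals were pooled are not given in the sources used here. The p-values therefore measure the spread between libraries of a strain, estimated over all 27 libraries of the 9 strains.

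NZO/HlLtJ, the New Zealand Obese strain, is known for polygenic obesity with insulin resistance, and WSB/EiJ is a wild-derived strain known to stay lean on rich diets. Hepatocytes make, store and export lipid, release glucose between meals, turn cholesterol into bile acids, detoxify drugs and secrete most plasma proteins. The strains also differ across the genome, so genotype and body weight cannot be told apart in any difference below.

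The 6 libraries held 26853322 to 32241591 counts, with nearly the same range in both strains. Albumin, the main plasma protein, took 10.6 to 11.7% of the counts in NZO/HlLtJ and 14.1 to 16.4% in WSB/EiJ. The 50 genes with the largest mean share over the 6 libraries took 37.6 to 38.9% against 46.1 to 48.0%. TMM, the scaling of edgeR that sets the typical gene to no change, gave factors of 1.16 to 1.23 for NZO/HlLtJ and 0.783 to 0.832 for WSB/EiJ. Levels are therefore given as CPM, counts scaled to a library of 1000000 after TMM, and differences as log2 fold changes of NZO/HlLtJ over WSB/EiJ. A ± after a mean CPM is the SD of 3 libraries, and a ± after a log2 fold change is its standard error. Library values are given in the order of the replicates, first NZO/HlLtJ and then WSB/EiJ. Scaled by library totals alone, the median of all genes moved from 0.0 to 0.58 on the log2 scale, and 86.1% of the calls were higher in NZO/HlLtJ instead of 45.9%. Counts from that second scaling, chosen after the factors were seen, stand beside the TMM counts of each gene list. All pairs of libraries within a strain correlated at 0.974 to 0.987 and pairs between the strains at 0.917 to 0.928 (Pearson, across genes). Each replicate pair differed by more than sampling noise.

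Of 14482 genes tested, 4854 (33.5%) differed at an adjusted p under 0.05 in edgeR's quasi-likelihood test. In NZO/HlLtJ 2228 genes were higher (15.4% of those tested) and 2626 were lower (18.1%). The difference was at least 2-fold in 2222 genes (15.3%), of which 878 were higher and 1344 lower, and at least 8-fold in 225 higher and 296 lower genes. For 7593 genes (52.4%) the 3 values of one strain lay wholly above the 3 of the other. With library totals 6708 genes were higher and 1082 lower. All 2228 genes called higher with TMM were higher with both scalings, 1082 were lower with both, and no gene was called in opposite directions. These percentages are the background against which the gene lists are read. They cover genes of all levels, and the share that was lower was larger among the most abundant genes, as given next. The part of abundance in the list counts was not tested.

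The most abundant genes were mostly lower in NZO/HlLtJ. Among the 139 genes averaging 1000 CPM or more over the 2 strains, 9 were higher in NZO/HlLtJ and 91 lower, and their median log2 fold change was -0.89. Albumin was among the genes that were lower (-0.99 ± 0.23, adjusted p = 0.00247). Of the 950 genes of 100 to 1000 CPM 121 were higher and 407 lower, with a median of -0.39. Genes of 1 to 10 CPM had a median of 0.14 and those of 10 to 100 CPM one of 0.05. The least abundant class, 3294 genes under 1 CPM, was again below 0 (-0.28, with 256 higher and 379 lower), so the medians did not follow abundance in 1 direction. With library totals the most abundant class kept a negative median, -0.32, while every other class had a positive one.

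**Figure D1:**
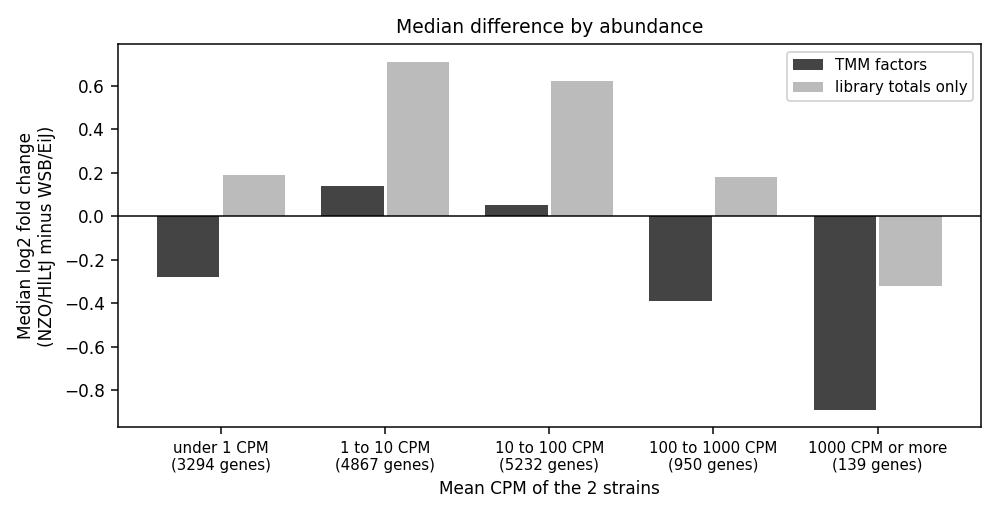
Median log2 fold change (y axis, NZO/HlLtJ minus WSB/EiJ) of the genes tested, by their mean CPM in the 2 strains (x axis), with TMM factors (dark bars) and with library totals (light bars). The class of 1000 CPM or more lies at -0.89 and -0.32, the only class below 0 under both scalings.

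Predicted genes, pseudogenes, other genes that do not code for protein and the major urinary proteins were passed over in naming the leading genes; some of these had larger differences, and several are given with the urinary proteins and the gene copies below. The 8 largest increases in NZO/HlLtJ among the remaining genes were Tgtp1, Ly6a, Raet1d, Akr1c18, Srgap3, Rps2, Cyp3a41b and Sult2a7; Tgtp1 is described with the interferon genes, and Rps2 and Cyp3a41b with the gene copies. Ly6a, a surface protein anchored by a lipid and induced by interferon (chr15:74994877-74998031 in GRCm38, GENCODE M21), measured 93.9, 63.2 and 21 CPM in the NZO/HlLtJ libraries and 0.506, 0.524 and 0.138 CPM in the WSB/EiJ libraries. Replicate 3 of NZO/HlLtJ was the lowest of its strain and still far above every WSB/EiJ library, and the log2 fold change was 7.21 ± 0.96 (adjusted p = 4.35e-06). Akr1c18, a hydroxysteroid dehydrogenase that inactivates progesterone (chr13:4132615-4150654), measured 45, 56.2 and 51.2 CPM against 0.506, 0.161 and 0.46 CPM (7.08 ± 0.36, adjusted p = 2.62e-13). Its level was not ordered by these 2 strains alone: 2 other strains lay above NZO/HlLtJ, CAST/EiJ the highest with 97.9 CPM, and 4 lay below WSB/EiJ. Sult2a7, a sulfotransferase of steroids and bile acids (chr7:14465051-14494230), measured 98.9, 110.0 and 125 CPM against 1.26, 1.37 and 4.37 CPM (5.59 ± 0.43, adjusted p = 6.61e-10, and 6.39 without WSB/EiJ replicate 4). Here NZO/HlLtJ was above all 7 other strains, the next being C57BL/6J with 19.2 CPM.

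Raet1d and Srgap3 were also among the 8 largest increases of the remaining genes. Raet1d, a ligand of the NKG2D receptor of natural killer cells (chr10:22360552-22374139), measured 21.1, 27 and 32.2 CPM against 0.0, 0.202 and 0.368 CPM (7.14 ± 0.56, adjusted p = 8.81e-10). Its counts were not whole in any of the 6 libraries, so part of its reads may have been shared with similar genes. The log2 fold change was 6.55 without WSB/EiJ replicate 2 and 7.96 without replicate 4. Srgap3, a GTPase-activating protein (chr6:112717971-112947266), measured 8.72, 8.91 and 24.6 CPM against 0.126, 0.202 and 0.0 CPM. The ratio of its summed counts was 124 (95% interval 62.8 to 286, which covers counting error only). Its fitted log2 fold change, 6.9 ± 0.58 (adjusted p = 2.6e-09), was 6.23 without NZO/HlLtJ replicate 3 and 7.64 without WSB/EiJ replicate 3.

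The 8 largest decreases among them averaged under 1 CPM in NZO/HlLtJ. Serpina3c, a protease inhibitor related to antichymotrypsin (chr12:104146382-104153870), measured 0.841, 0.38 and 0.481 CPM in NZO/HlLtJ and 417, 350.0 and 430.0 CPM in WSB/EiJ (-9.44 ± 0.29, adjusted p = 5.11e-17). Col5a2, a chain of type V collagen (chr1:45374321-45503282), measured 1.04, 0.759 and 0.642 CPM against 676, 755 and 224 CPM (-9.38 ± 0.48, adjusted p = 2.57e-13). The 18 stellate cell and matrix markers summed to 41.2 to 69.3 CPM against 90.9 to 143 CPM, with 4 of 16 tested lower (3 with library totals) and Acta2 at 0 counts in all 6 libraries, and their part in the difference was not tested. In bulk RNA, fewer cells of a type and less RNA per cell cannot be told apart. Ces2h, a carboxylesterase (chr8:105000853-105021178), measured 0.255, 0.354 and 0.353 CPM against 158, 157 and 145 CPM (-8.89 ± 0.35, adjusted p = 2.57e-15). Susd2, a membrane protein with a sushi domain (chr10:75636706-75644008), measured 0.51, 0.278 and 0.545 CPM against 163, 231 and 217 CPM (-8.85 ± 0.44, adjusted p = 1.45e-13). The highest of the 7 other strains had 5.32 CPM of Susd2.

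Cyp39a1, Cyp2b19 and Lcn2 were also among these 8, and C1s2 is described with the complement genes. Cyp39a1, the hydroxylase of the oxysterol made in the brain (chr17:43667425-43751431), measured 0.663, 0.557 and 0.962 CPM in NZO/HlLtJ and 82.6, 171 and 174 CPM in WSB/EiJ (-7.63 ± 0.37, adjusted p = 1.01e-13). All 7 other strains lay between, PWK/PhJ the lowest of them with 2.25 CPM and CAST/EiJ the highest with 71.4 CPM, so NZO/HlLtJ and WSB/EiJ were the extremes of the series. Cyp2b19, a cytochrome P450 known from skin (chr7:26757142-26772630), had 1 count over the 3 NZO/HlLtJ libraries and 4.17, 16.9 and 12.2 CPM in WSB/EiJ. The ratio of the summed counts was 1219 (95% interval 219 to 48162). Lcn2, which binds bacterial iron carriers (chr2:32384633-32388252), measured 0.306, 0.734 and 0.0962 CPM against 50.8, 63.4 and 571 CPM. WSB/EiJ replicate 4 stood apart, and the log2 fold change of -9.16 ± 0.99 (adjusted p = 1.74e-07) was -7.16 without it and -10.05 without NZO/HlLtJ replicate 2. The 12 neutrophil and monocyte markers summed to 2.53 to 2.85 CPM in NZO/HlLtJ and 1.24 to 4.13 CPM in WSB/EiJ, and their part was not tested.

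**Figure D2:**
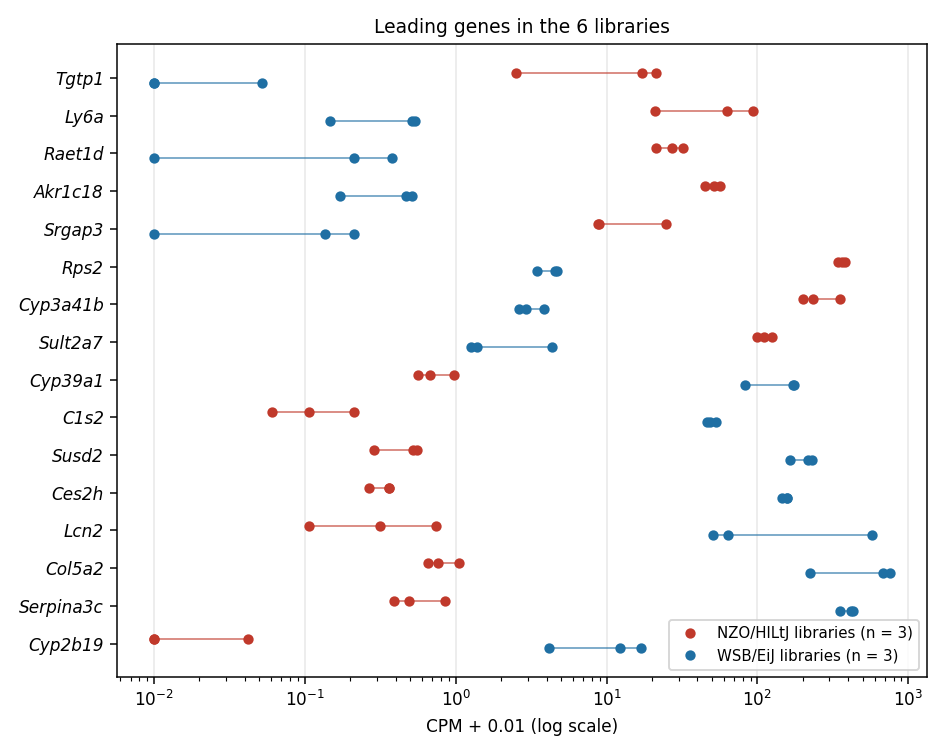
CPM plus 0.01 on a log axis (x) of the 8 largest increases and the 8 largest decreases named by the rule (y), 1 point per library, 3 NZO/HlLtJ libraries (red) and 3 WSB/EiJ libraries (blue), with a line over the range of a strain. The ranges of the strains do not meet, which the rule for these genes required, and Lcn2 in WSB/EiJ reaches from 50.8 to 571 CPM.

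Among abundant genes, averaging at least 200 CPM over the 6 libraries, the 5 largest increases among protein-coding genes other than major urinary proteins and named pseudogenes had log2 fold changes of 2.08 to 3.63 and the 5 largest decreases of -9.38 to -3.15. Ly6e, Col5a2 and the 2 hepcidin genes among them are described with their groups. Bhmt, which returns homocysteine to methionine with betaine, measured 3178, 3329 and 4742 CPM in NZO/HlLtJ and 515, 627 and 862 CPM in WSB/EiJ (2.49 ± 0.3, adjusted p = 1.15e-06). Aldh1a7, an aldehyde dehydrogenase, averaged 712 ± 104 CPM against 169 ± 44.9 CPM (SD, n = 3, adjusted p = 3.33e-08). Ugt3a2, a UDP-sugar transferase, averaged 388 ± 33.2 CPM against 55.3 ± 5.08 CPM (adjusted p = 6.28e-12). None of these 3 had overlapping strains. Cyp17a1, the steroid hydroxylase and lyase of androgen synthesis, measured 2.14, 5.57 and 24.9 CPM against 525, 833 and 609 CPM (-5.92 ± 0.71, adjusted p = 9.12e-07). Its NZO/HlLtJ level rested on replicate 3, without which the log2 fold change was -7.41. Cyp2c23, an epoxygenase of arachidonic acid, measured 14.1, 16.3 and 14.2 CPM against 662, 569 and 281 CPM (-5.08 ± 0.29, adjusted p = 1.77e-12). Mug2, a murinoglobulin that traps proteases, averaged 130.0 ± 18.6 CPM against 2081 ± 572 CPM (SD, n = 3, adjusted p = 1.81e-08).

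**Figure D3:**
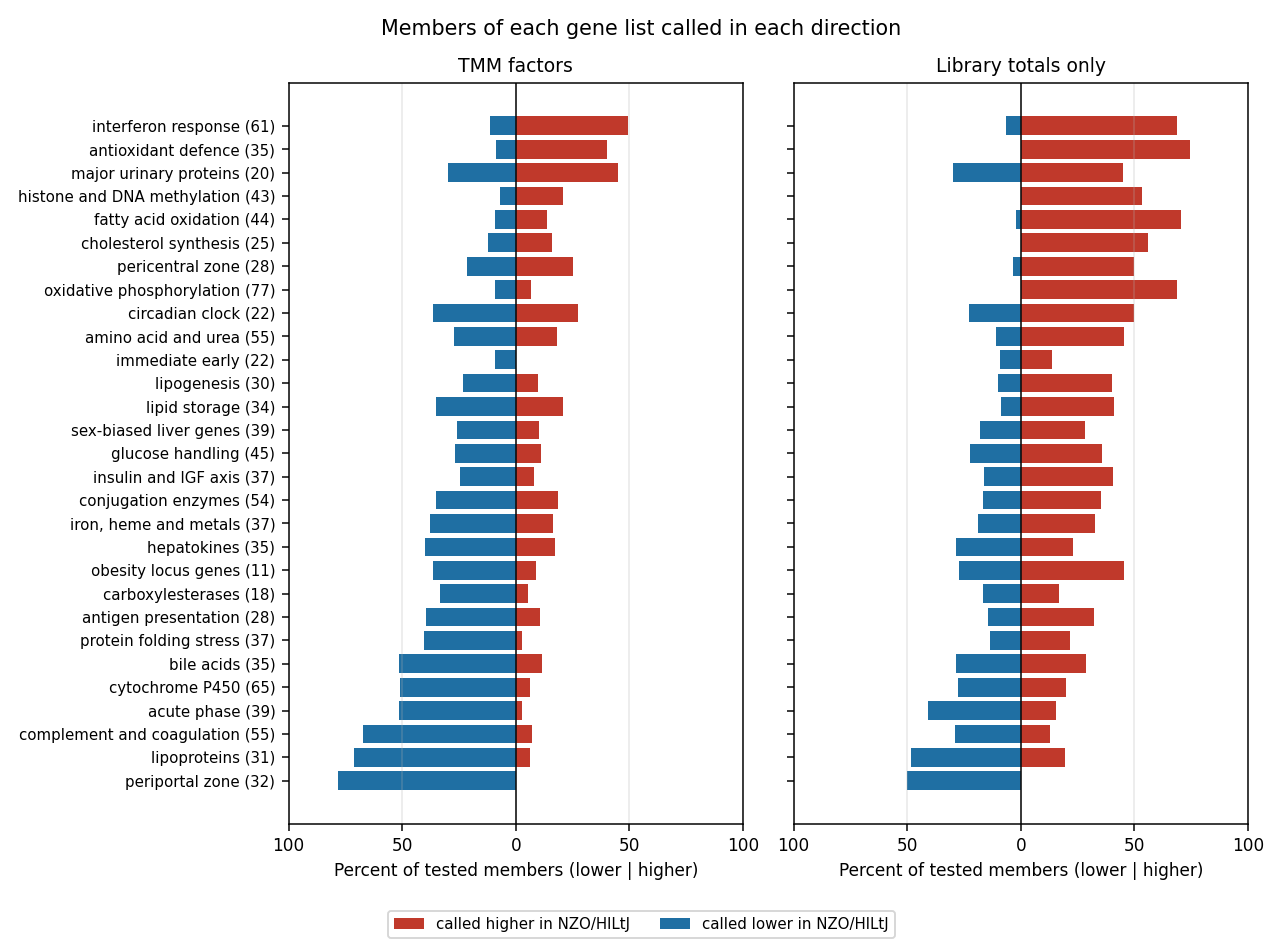
Percent of the tested members of each gene list (y axis, number tested in brackets) called higher (red, to the right) or lower (blue, to the left) in NZO/HlLtJ, with TMM factors (left panel) and library totals (right panel). Interferon response, antioxidant defence and major urinary protein genes lean to the right and periportal, lipoprotein, complement and acute phase genes to the left, and in the right panel most lists shift to the right.

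Interferons are signals of viral defence; their receptors activate transcription factors, which bind the interferon response element before genes for antiviral proteins. This list had the largest share of increases of all pathway lists with TMM: 30 of 61 tested members were higher in NZO/HlLtJ (49.2%, against 15.4% of all genes) and 7 were lower (11.5%), with a median log2 fold change of 0.98. With library totals 42 were higher and 4 lower. Leaving out any 1 library gave 26 to 34 higher and 5 to 7 lower.

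Irf7 and Isg15 were picked after their values were seen. Irf7, a regulatory factor that is itself induced by interferon, measured 22.1, 17.7 and 11.6 CPM against 6.32, 5.85 and 3.87 CPM (1.68 ± 0.33, adjusted p = 0.000533). Isg15, a ubiquitin-like protein joined to viral and host proteins, measured 9.71, 9.34 and 4.2 CPM against 1.56, 1.37 and 0.967 CPM (2.57 ± 0.4, adjusted p = 3.53e-05). In both genes NZO/HlLtJ replicate 3 was the lowest of its strain and above all WSB/EiJ libraries.

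The effectors included the widest differences. Tgtp1, an interferon-induced GTPase that attacks the vacuoles of parasites (chr11:48985327-48994172), measured 17.1, 21.3 and 2.5 CPM in NZO/HlLtJ and had 1 count over the 3 WSB/EiJ libraries, a ratio of 957 (95% interval 172 to 37789). Its copy Tgtp2 measured 10.8, 12.9 and 1.99 CPM against 0.211, 0.242 and 0.0921 CPM (5.51 ± 0.95, adjusted p = 0.000148). Counts of the pair were not whole in most libraries, so the split between them is uncertain, and their sum averaged 22.2 ± 15.7 CPM against 0.196 ± 0.0899 CPM (SD, n = 3). Ly6e, a surface protein of the family of Ly6a that was not in the list, measured 426, 483 and 224 CPM against 89.1, 64 and 58.5 CPM (2.42 ± 0.35, adjusted p = 1.26e-05). The neighbouring antiviral GTPases Mx1 and Mx2 on chromosome 16 went in opposite directions. Mx1 measured 4.26, 4.71 and 1.99 CPM against 0.126, 0.0807 and 0.138 CPM (4.95 ± 0.57, adjusted p = 5.16e-07), a ratio of 32.1 (95% interval 16.3 to 74.2) over 8 counts in WSB/EiJ. Mx2 measured 0.0255, 0.101 and 0.0962 CPM against 3.58, 4.11 and 2.49 CPM (-5.46 ± 0.49, adjusted p = 8.87e-09), a ratio of 46.6 (95% interval 23.7 to 108) the other way over 8 counts in NZO/HlLtJ. The counts of both were not whole in any of the 6 libraries. NZO/HlLtJ had the highest Mx1 and the lowest Mx2 of the 9 strains.

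Among the 7 members that were lower, Bst2, which tethers budding viruses to the cell, measured 102, 98.2 and 71.3 CPM against 157, 172 and 183 CPM (-0.92 ± 0.24, adjusted p = 0.00452). With library totals it was no longer called (-0.34, adjusted p = 0.149). Ifi203, a nuclear DNA-binding protein, averaged 0.533 ± 0.0867 CPM against 1.78 ± 0.112 CPM (SD, n = 3, adjusted p = 0.0132). Markers of immune cells were measured beside the list. The 16 Kupffer cell markers summed to 185 to 224 CPM in NZO/HlLtJ and 365 to 624 CPM in WSB/EiJ, and the 18 lymphocyte markers to 1.15 to 3.11 against 2.21 to 6.53 CPM. Of the 16 Kupffer markers 1 was higher and 2 lower (2 and 1 with library totals). With 1 library left out 1 or 2 were higher and 1 to 3 lower. The most abundant of them was Slc40a1, an iron exporter also made by other cells (113 ± 23.6 against 354 ± 90.0 CPM). Without it the other 15 summed to 54.3 to 133 CPM against 103 to 182 CPM, so the strains overlapped, as they did for lymphocytes. With Kupffer and endothelial levels as covariates 27 interferon members were higher and 6 lower, and the part of lymphocytes was not tested.

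Because Tgtp1 and Tgtp2 were among the widest increases and Bst2 a decrease within the same list, their upstream sequences are shown to compare the response element. They come from RefSeq (GRCm38.p6), lie on the minus strand and reach up to 250 bases before the start site, with bases of annotated exons removed. The Tgtp1 window lies within introns of longer Tgtp1 transcripts, and both Tgtp windows lie within an intron of Olfr56 on the other strand. Capitals mark the core of the interferon response element: GAAA, then 2 bases of any kind, then GAAA again. It was searched on both strands, and matches may overlap.

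Tgtp1: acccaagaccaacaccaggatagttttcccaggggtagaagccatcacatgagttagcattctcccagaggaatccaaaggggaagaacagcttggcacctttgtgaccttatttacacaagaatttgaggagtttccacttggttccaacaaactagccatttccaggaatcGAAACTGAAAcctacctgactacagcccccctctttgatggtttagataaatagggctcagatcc

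Tgtp2: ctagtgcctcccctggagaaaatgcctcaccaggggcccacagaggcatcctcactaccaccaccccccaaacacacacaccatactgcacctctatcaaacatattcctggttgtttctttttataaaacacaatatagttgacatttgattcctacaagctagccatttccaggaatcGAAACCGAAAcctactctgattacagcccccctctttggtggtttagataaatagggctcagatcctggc

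Bst2: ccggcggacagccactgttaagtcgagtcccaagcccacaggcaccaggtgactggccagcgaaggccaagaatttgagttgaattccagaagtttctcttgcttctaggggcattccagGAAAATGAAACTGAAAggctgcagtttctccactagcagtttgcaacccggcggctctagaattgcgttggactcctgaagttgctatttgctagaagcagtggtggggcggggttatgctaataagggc

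The windows are chr11:48992259-48992496 for Tgtp1, chr11:49064213-49064462 for Tgtp2 and chr8:71537473-71537722 for Bst2. Tgtp1 and Tgtp2 have 1 match each, with GAAACTGAAA starting 77 bases and GAAACCGAAA starting 70 bases before the start site. Bst2, which was lower in NZO/HlLtJ, has 2 overlapping matches, GAAAATGAAA and GAAACTGAAA. The core was present in 3.46% of the 27025 promoter windows of the table and in 3.37% of the 10486 tested genes with an entry. Among interferon list members that were tested and had an entry it was present in 24 of 43: in 12 of 23 that were higher, 4 of 5 that were lower and 8 of 15 that were not called. The sequences are of the reference strain C57BL/6J; those of NZO/HlLtJ and WSB/EiJ were not used here.

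Antigen presentation genes show peptides to T cells. Of 28 tested members 3 were higher and 11 lower (9 and 4 with library totals), with a median of -0.51, and 7 were lower when any 1 of the 3 NZO/HlLtJ libraries was left out. With Kupffer and endothelial covariates 5 were lower. H2-D1, a classical class I molecule, measured 454, 424 and 377 CPM against 144, 133 and 139 CPM (1.59 ± 0.25, adjusted p = 3.71e-05). H2-Q7, a nonclassical class I molecule, measured 3.29, 2.51 and 3.05 CPM against 26.6, 22.7 and 33.1 CPM (-3.22 ± 0.42, adjusted p = 3.27e-06). Counts of both were not whole in any of the 6 libraries. Class I genes are near-identical and differ in sequence between strains, so the assignment of reads among them is uncertain.

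The circadian clock is a loop in which BMAL1 (Arntl) with CLOCK or NPAS2 binds the E-box and switches on the PER, CRY and REV-ERB (Nr1d1) repressors, whose targets peak at the opposite hour. Of 22 clock genes tested, 6 were higher and 8 lower in NZO/HlLtJ (11 and 5 with library totals), 27.3% and 36.4% against 15.4% and 18.1% of all genes. Members of the same arm of the loop did not all go the same way. Npas2 measured 13.7, 11.8 and 10.6 CPM against 3.16, 1.98 and 0.829 CPM (2.59 ± 0.57, adjusted p = 0.00128). Nfil3, a repressor of D-box genes, measured 36.8, 33.5 and 33.8 CPM against 14.6, 12.3 and 9.62 CPM (1.51 ± 0.32, adjusted p = 0.000845). Arntl measured 20.7, 20.4 and 22.4 CPM against 13, 12.1 and 5.66 CPM, with a log2 fold change of 1.04 ± 0.38 (adjusted p = 0.0362). That call was the weakest of the 3: leaving out any library except WSB/EiJ replicate 2 raised the adjusted p to between 0.0526 and 0.158.

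Among the repressors, Cry1 was higher and the REV-ERB genes, Per2 and Per3 were lower. Cry1, named after its values were seen, measured 10.9, 10.8 and 7.28 CPM against 6.45, 4.88 and 3.45 CPM (0.97 ± 0.33, adjusted p = 0.0255), but had an adjusted p of 0.0685 to 0.111 without NZO/HlLtJ replicate 1 or 2 or WSB/EiJ replicate 3 or 4. Nr1d1 (named after its values were seen) measured 9.12, 13.6 and 9.85 CPM in NZO/HlLtJ and 36.8, 39.8 and 102 CPM in WSB/EiJ (-2.46 ± 0.44, adjusted p = 0.000192, and -1.82 without WSB/EiJ replicate 4). Per2, also named afterwards, measured 2.65, 2.66 and 4.07 CPM against 12.6, 6.82 and 10.9 CPM (-1.69 ± 0.44, adjusted p = 0.00504). Nr1d2, the second REV-ERB, averaged 19 ± 4.88 against 52.3 ± 23 CPM (adjusted p = 0.00019). Per3 averaged 2.58 ± 0.3 against 9.73 ± 7.68 CPM (adjusted p = 0.0405), with WSB/EiJ replicate 4 the highest, and was called without WSB/EiJ replicate 2 or 3 but not without any other library (adjusted p = 0.0706 to 0.29) or with library totals (0.106). Bhlhe41, a repressor that competes for the E-box, had 1 count over the NZO/HlLtJ libraries and 3.08, 0.565 and 2.35 CPM in WSB/EiJ, a ratio of 219 (95% interval 39.4 to 8668).

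The D-box activators, outputs of the clock, were split. Hlf was higher, at 23.4, 26 and 24.3 CPM against 15.1, 17.5 and 14.7 CPM (0.64 ± 0.18, adjusted p = 0.00784), and its strains did not overlap, but it was not called with Kupffer and endothelial covariates (0.45, adjusted p = 0.0614). Tef was lower (30.4 ± 2.46 against 64.5 ± 32.5 CPM, adjusted p = 0.0278), but not called without NZO/HlLtJ replicate 1 or 2 or WSB/EiJ replicate 4 (0.081 to 0.236) or with library totals (0.254). Hlf, Tef, Nr1d2 and Per3 were named after their values were seen. Dbp, a D-box activator that swings widely over the day, measured 1.3, 0.759 and 0.77 CPM against 3.33, 3.55 and 48.6 CPM. WSB/EiJ replicate 4 set its log2 fold change of -4.27 ± 1.19 (adjusted p = 0.0081), which was -1.85 (adjusted p = 0.213) without it. Ciart, a repressor of BMAL1, measured 0.051, 0.0253 and 0.353 CPM against 0.337, 0.403 and 2.58 CPM, so the strains overlapped. Its log2 fold change of -2.98 ± 1.06 (adjusted p = 0.0326) was -1.43 (adjusted p = 0.342) without WSB/EiJ replicate 4, -2.57 (0.121) and -2.47 (0.126) without NZO/HlLtJ replicates 1 and 2, and -4.69 (0.0121) without NZO/HlLtJ replicate 3, with the adjusted p in brackets. With library totals the adjusted p of Ciart was 0.0501.

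Without WSB/EiJ replicate 4 the clock list had 4 lower members instead of 8, and without NZO/HlLtJ replicate 1 or 2 it had 5. In the fit with Kupffer and endothelial covariates 3 were higher and 5 lower, and Arntl (adjusted p = 0.118), Cry1 (0.19), Per3 (0.119), Tef (0.0714) and Ciart (0.104), like Hlf, were not called. Another 4 core members, named after their values were seen, were not called: Clock averaged 34.6 ± 4.77 against 28.3 ± 3.12 CPM (adjusted p = 0.275), Cry2 27.5 ± 1.15 against 27.3 ± 6.74 CPM (0.97), Rora 43.3 ± 3.79 against 36.6 ± 3.04 CPM (0.343) and Per1 7.69 ± 10.9 against 25.5 ± 16.4 CPM (0.174). The hour of collection is not given in the sources used here, and its part in these differences was not tested. Of 22 immediate early genes tested, which respond to handling within minutes, 0 were higher and 2 lower at an adjusted p under 0.05 in edgeR, and 3 and 2 with library totals. At an unadjusted p under 0.05 they were 1 and 6, and DESeq2 called 0 higher and 4 lower. Without NZO/HlLtJ replicate 1, 1 was lower.

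The E-box is shown in 2 clock genes that were lower in NZO/HlLtJ, Bhlhe41 (chr6:145865559-145865670) and Ciart (chr3:95882252-95882478), both on the minus strand and from the same table. The Bhlhe41 window stops where an annotated exon begins, and the Ciart window lies within an intron of an antisense gene. Capitals mark CACGTG, which reads the same on both strands.

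Bhlhe41: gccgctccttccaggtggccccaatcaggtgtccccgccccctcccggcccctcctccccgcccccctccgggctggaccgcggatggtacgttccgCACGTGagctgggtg

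Ciart: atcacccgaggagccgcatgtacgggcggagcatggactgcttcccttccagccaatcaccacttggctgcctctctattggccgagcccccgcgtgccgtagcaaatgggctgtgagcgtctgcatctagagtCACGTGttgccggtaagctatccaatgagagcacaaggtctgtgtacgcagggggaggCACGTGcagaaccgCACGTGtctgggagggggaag

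Bhlhe41 has 1 match and Ciart 3, starting 116, 58 and 44 bases before the start site. CACGTG was present in 6.86% of all promoter windows, in 9.81% of those of genes tested and in 5 of 17 clock members that were tested and had an entry. It was present in 1 of 5 members that were higher, 3 of 7 that were lower and 1 of 5 not called.

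**Figure D4:**
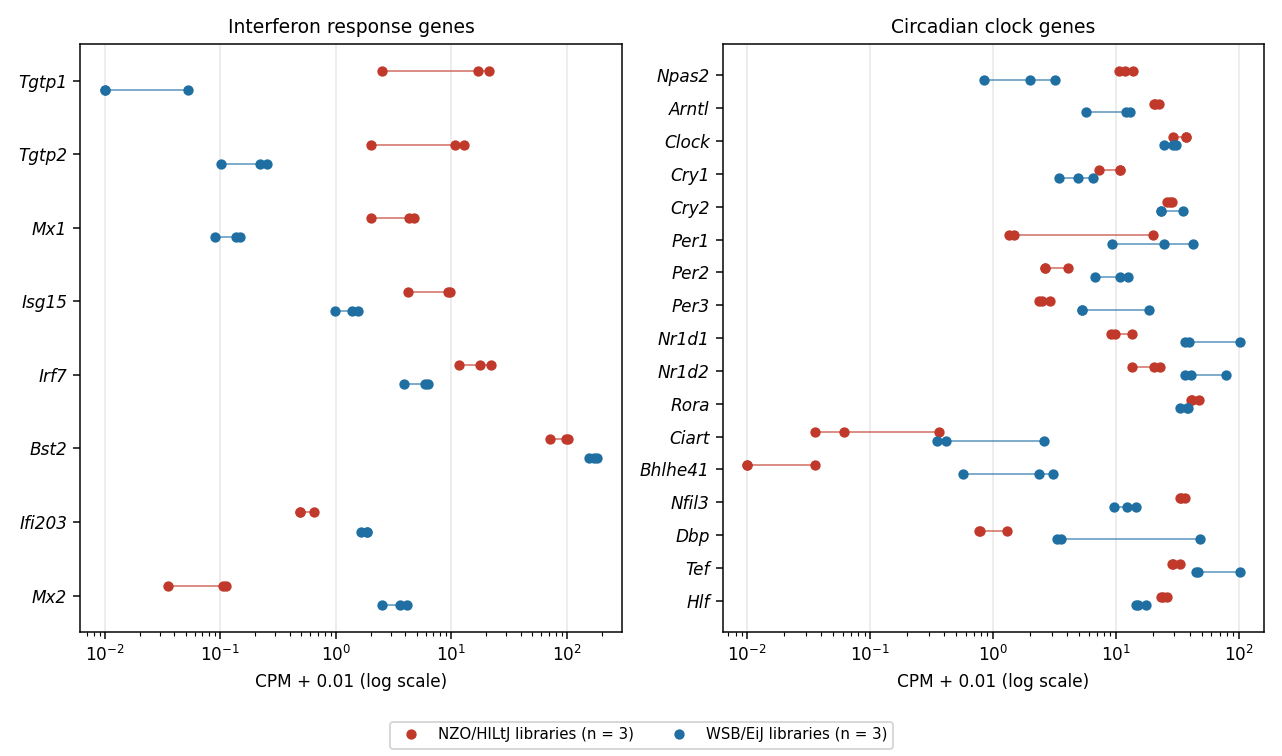
CPM plus 0.01 on a log axis (x) of interferon response genes (left) and circadian clock genes (right), 1 point per library, NZO/HlLtJ in red and WSB/EiJ in blue (n = 3 each), with a line over each strain's range. Npas2, Arntl, Cry1, Nfil3 and Hlf lie higher in NZO/HlLtJ while Nr1d1, Nr1d2, Per2, Per3, Tef, Dbp and Bhlhe41 lie lower, and Ciart and Per1 overlap.

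Fatty acid synthesis is driven by SREBP-1c (Srebf1) and insulin in hepatocytes. Of 30 lipogenesis genes tested, 3 were higher and 7 lower in NZO/HlLtJ (12 and 3 with library totals), 10% and 23.3% against 15.4% and 18.1% of all genes, with a median of -0.02 against 0.0. The central genes did not pass the test. Srebf1 averaged 413 ± 56.7 CPM against 565 ± 257 CPM (adjusted p = 0.29). Fasn, fatty acid synthase, averaged 404 ± 34.6 against 598 ± 249 CPM (adjusted p = 0.21), and Scd1, the desaturase that makes oleate, 3067 ± 616 against 1952 ± 930.0 CPM (adjusted p = 0.328). In all 3 the strains overlapped. Thrsp (adjusted p = 0.664) and Gpam (0.897) were not called either.

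Members that were called went both ways. Slc25a1, which exports the citrate used for synthesis, averaged 114 ± 5.61 against 64 ± 16.8 CPM (0.83 ± 0.16, adjusted p = 0.000431), and Nr1h3, the sterol receptor LXR alpha, 82.2 ± 6.22 against 51.5 ± 6.2 CPM (adjusted p = 0.00206). Elovl6, which lengthens palmitate, measured 49.7, 68.2 and 64.1 CPM against 166, 171 and 173 CPM (-1.49 ± 0.43, adjusted p = 0.00989), but was not called with Kupffer and endothelial covariates (-1.3, adjusted p = 0.0523). Insig2, which holds SREBPs back, measured 161, 180.0 and 166 CPM against 439, 661 and 398 CPM (-1.56 ± 0.23, adjusted p = 1.91e-05). Acaca, acetyl-CoA carboxylase, was lower by a small step (-0.54 ± 0.19, adjusted p = 0.0281). Its direction flipped with library totals (0.03, adjusted p = 0.924), and the adjusted p was 0.0516 to 0.0991 without any 1 library other than WSB/EiJ replicate 3.

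Lipid storage and uptake genes had 7 higher and 12 lower of 34 tested (14 and 3 with library totals). Plin2, the coat of hepatocyte lipid droplets, measured 224, 223 and 160.0 CPM in NZO/HlLtJ and 195, 178 and 164 CPM in WSB/EiJ, so the strains overlapped (0.18 ± 0.29, adjusted p = 0.659). Cidec, which fuses droplets, measured 0.138 to 0.379 CPM over the 6 libraries (adjusted p = 0.953), and Mogat1, a monoacylglycerol acyltransferase, averaged 0.483 ± 0.272 against 0.205 ± 0.141 CPM (adjusted p = 0.267). Pparg, whose product turns on droplet genes in fatty liver, measured 2.96, 2.48 and 2.44 CPM against 0.337, 0.403 and 2.62 CPM (adjusted p = 0.0722). Cd36, a fatty acid importer, was lower but overlapped: 89.8, 123 and 166 CPM against 162, 235 and 307 CPM (-0.9 ± 0.31, adjusted p = 0.0293). It lost the call with library totals (-0.33, adjusted p = 0.319), with Kupffer and endothelial covariates (-0.62, adjusted p = 0.138), and without NZO/HlLtJ replicate 1 or 2 or WSB/EiJ replicate 3 or 4 (adjusted p = 0.0615 to 0.14).

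Several lipases and carriers in this list did change. Lipe, hormone-sensitive lipase, measured 12.9, 9.01 and 9.24 CPM against 5.52, 3.91 and 3.82 CPM (1.23 ± 0.19, adjusted p = 3.25e-05). Vldlr, the receptor for triglyceride-rich particles, averaged 17.2 ± 6.48 against 5.38 ± 3.17 CPM (adjusted p = 0.00361). Pnpla3, the lipid droplet hydrolase tied to fatty liver in people, averaged 4.03 ± 1.97 against 0.952 ± 0.885 CPM (2.07 ± 0.7, adjusted p = 0.0261). Its adjusted p rose to 0.0545, 0.11, 0.0959 and 0.105 without NZO/HlLtJ replicate 1 or 2 and WSB/EiJ replicate 3 or 4, and its log2 fold change was 3.1 without WSB/EiJ replicate 2. Hsd17b13, a droplet protein of hepatocytes, measured 288, 308 and 344 CPM against 914, 1191 and 1112 CPM (-1.77 ± 0.21, adjusted p = 9.7e-07). Slc27a2, which takes up and activates fatty acids, averaged 753 ± 59.4 against 2227 ± 241 CPM (adjusted p = 7.05e-06), and Dgat1, which closes triglyceride synthesis, 15.1 ± 2.17 against 36.2 ± 3.9 CPM (adjusted p = 2.5e-05). Plin4 was at the threshold (adjusted p = 0.0498, and 0.0648 to 0.157 without any 1 library other than WSB/EiJ replicate 4), and it was not called with library totals (0.125), the GC trend removed (0.0541) or Kupffer and endothelial covariates (0.23). The list had 3 or 4 higher members without NZO/HlLtJ replicate 1 or 2 or WSB/EiJ replicate 3, and 7 lower ones without NZO/HlLtJ replicate 1 or 2. With the covariates for Kupffer and endothelial cells 3 were higher. The 8 adipocyte markers summed to 9.36 to 13 CPM against 4.1 to 6.15 CPM, nearly all of it Lipe, without which the other 7 summed to 0.102 to 0.417 against 0.276 to 0.632 CPM, and Lep, Retn and Adrb3 had 0 counts in all 6 libraries.

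Fatty acid oxidation had 6 higher and 4 lower of 44 tested with TMM (13.6% and 9.09%, both under the background) and 31 and 1 with library totals. Pdk4, which spares glucose when fat is burned, measured 17.3, 14.6 and 14.4 CPM against 2.44, 2.66 and 2.35 CPM (2.63 ± 0.47, adjusted p = 0.000183). Crot and Ech1, enzymes of peroxisomal and mitochondrial oxidation, averaged 651 ± 113 against 347 ± 59 CPM (adjusted p = 0.0047) and 224 ± 32.9 against 120.0 ± 29.5 CPM (adjusted p = 0.00404). Cpt1a, the gate to mitochondria, averaged 237 ± 37 against 339 ± 64.9 CPM and was not called (adjusted p = 0.0832). Fgf21 (adjusted p = 0.654) and Angptl4 (0.0549) were not called either. Ppargc1a, the coactivator PGC-1 alpha, measured 4.89, 5.62 and 6.06 CPM against 7.63, 11.3 and 16.7 CPM (-1.1 ± 0.29, adjusted p = 0.00528). It lost the call without WSB/EiJ replicate 4 (-0.78, adjusted p = 0.0542) and with library totals (-0.53, adjusted p = 0.143). The list had 3 higher members without NZO/HlLtJ replicate 2 or WSB/EiJ replicate 3 and 10 without WSB/EiJ replicate 4, and 2 lower ones without NZO/HlLtJ replicate 1 or WSB/EiJ replicate 4. With Kupffer and endothelial covariates 3 were higher.

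Cholesterol synthesis turned on 1 library. Sterol genes are switched on together by SREBP-2 when cells lack cholesterol. Of 25 tested members 4 were higher and 3 lower (14 and 0 with library totals), but without WSB/EiJ replicate 2 the number higher was 14, and without NZO/HlLtJ replicate 1 or 2 or WSB/EiJ replicate 3 or 4 it was 2. The number lower was 1 without any 1 library other than NZO/HlLtJ replicate 3. Sqle, squalene epoxidase, measured 83.4, 72.9 and 61.6 CPM in NZO/HlLtJ and 148, 13 and 11.8 CPM in WSB/EiJ. WSB/EiJ replicate 2 was above all NZO/HlLtJ libraries and the other two far below them (adjusted p = 0.716). That library also stood apart in erythroid markers: those other than Alas2 summed to 27.9 CPM there and to 0.128 to 2.42 CPM in the other 5 libraries, and their part in the sterol values was not tested. Of 5 erythroid markers tested 1 was higher and 2 lower under both scalings, and 0 were lower without any 1 NZO/HlLtJ library or WSB/EiJ replicate 2.

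Mvd, an enzyme of the mevalonate pathway, measured 28.2, 29.7 and 27.7 CPM against 20.1, 1.13 and 1.66 CPM (1.9 ± 0.65, adjusted p = 0.0268). Without WSB/EiJ replicate 2 its log2 fold change was 4.36 (adjusted p = 6.86e-06), and without NZO/HlLtJ replicate 1 or 2 or WSB/EiJ replicate 3 or 4 the adjusted p was 0.0539 to 0.111. Fdps, which makes farnesyl diphosphate, moved likewise: 1.48 ± 0.51 (adjusted p = 0.0287) with all libraries, 2.78 (0.000137) without WSB/EiJ replicate 2, and an adjusted p of 0.0521 to 0.136 without NZO/HlLtJ replicate 1 or 2 or WSB/EiJ replicate 3 or 4. In a fit of the 6 libraries alone neither Mvd (adjusted p = 0.0995) nor Fdps (0.0788) was called. Pmvk, the kinase before Mvd, averaged 40.8 ± 2.1 against 14.8 ± 7.25 CPM (1.46 ± 0.26, adjusted p = 0.000182).

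Lipoprotein genes code for the proteins that carry lipid in plasma and the receptors that take it up. Of 31 tested, 22 were lower in NZO/HlLtJ (71%, against 18.1% of all genes) and 2 higher, with a median of -0.88, and with library totals 15 were lower and 6 higher. Leaving out any 1 library gave 19 to 21 lower. Of all genes of 1000 CPM or more 91 of 139 were lower as well, and the part of abundance in the count was not tested. Apoa4, an apolipoprotein of chylomicrons and VLDL, measured 179, 164 and 278 CPM against 708, 1131 and 1968 CPM (-2.62 ± 0.36, adjusted p = 6.61e-06). Apoc2, the activator of lipoprotein lipase, measured 108, 110.0 and 105 CPM against 259, 381 and 478 CPM (-1.79 ± 0.22, adjusted p = 9.72e-07). Scarb1, the HDL receptor, averaged 110.0 ± 19.5 against 374 ± 87.8 CPM (adjusted p = 1.18e-06). In none of these did the strains overlap.

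The structural proteins Apob and Apoe, named after their values were seen, were lower too. Apob, the backbone of VLDL, averaged 4608 ± 933 against 9739 ± 1283 CPM (-1.08 ± 0.21, adjusted p = 0.000367), and Apoe, the ligand for remnant uptake, 13306 ± 1101 against 28865 ± 2412 CPM (-1.12 ± 0.24, adjusted p = 0.000912). The 2 higher members were Sort1, a sorting receptor for apolipoprotein B (4.94, 3.14 and 2.85 CPM against 0.843, 0.766 and 0.414 CPM, adjusted p = 2.86e-05), and Pon3, an HDL-bound lactonase (0.76 ± 0.15, adjusted p = 0.000606). Among the 9 strains WSB/EiJ had the lowest Sort1 level, and 5 strains lay above NZO/HlLtJ, up to 63.7 CPM in A/J.

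Glucose handling had 5 higher and 12 lower of 45 tested (16 and 10 with library totals). Gluconeogenesis makes glucose in fasting and insulin turns it down. G6pc, which releases free glucose, measured 232, 324 and 604 CPM in NZO/HlLtJ and 1264, 959 and 1052 CPM in WSB/EiJ (-1.5 ± 0.38, adjusted p = 0.0043). Pck1, the committed enzyme, measured 298, 447 and 1176 CPM against 1908, 2217 and 3153 CPM (-1.92 ± 0.55, adjusted p = 0.0092). NZO/HlLtJ replicate 3 was high in both. Pck1 missed the threshold without NZO/HlLtJ replicate 1 or 2 (adjusted p = 0.0579 and 0.0519) and had -2.7 without replicate 3. Ppp1r3c, which targets a phosphatase to glycogen, averaged 61.8 ± 16.6 against 24 ± 2.29 CPM (adjusted p = 0.00562), and Ldhd, which oxidises D-lactate, 138 ± 7.04 against 73 ± 8.23 CPM (adjusted p = 4.44e-05). The number of higher members was 2 or 3 without NZO/HlLtJ replicate 2 or 3 or WSB/EiJ replicate 2 or 3.

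In the insulin and IGF axis 3 of 37 tested were higher and 9 lower (15 and 6 with library totals), and 1 was higher without NZO/HlLtJ replicate 1 or 2 or WSB/EiJ replicate 4. Igfbp2, an IGF-binding protein whose plasma level falls in obesity, measured 124, 113 and 76.7 CPM against 841, 911 and 755 CPM (-3.0 ± 0.26, adjusted p = 5.99e-09). Igfbp1, a binding protein that insulin suppresses, measured 39.2, 69.4 and 116 CPM against 375, 136 and 388 CPM (-2.0 ± 0.53, adjusted p = 0.00561). NZO/HlLtJ had the lowest Igfbp2 level of the 9 strains; the next, NOD/ShiLtJ, had 341 CPM. Grb10, an adaptor that restrains insulin and IGF receptors, measured 4.59, 4.63 and 4.52 CPM against 0.885, 0.928 and 0.783 CPM (2.4 ± 0.26, adjusted p = 2.05e-07). Insr, the insulin receptor, averaged 114 ± 25.1 against 214 ± 31.9 CPM (-0.91 ± 0.18, adjusted p = 0.000586, and -0.33 with adjusted p = 0.0654 for library totals). Lepr, the leptin receptor, measured 0.51, 0.607 and 0.674 CPM against 2.02, 2.26 and 2.39 CPM (-1.9 ± 0.43, adjusted p = 0.00175), and 6 of the other 7 strains lay above both. Irs2 (adjusted p = 0.081), Igf1 (0.687), Socs2 (0.108) and Ghr (0.221) were not called.

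Genes proposed for obesity and diabetes loci of the NZO lineage gave 1 higher and 4 lower of 11 tested (5 and 3 with library totals, and 2 higher without WSB/EiJ replicate 4), and Nmur2, Gipr, Pcsk1 and Mc4r had 0 counts in all 6 libraries. Pctp, a phosphatidylcholine transfer protein, measured 53.1, 73.4 and 48.5 CPM against 24, 20.9 and 36.9 CPM (1.1 ± 0.27, adjusted p = 0.00328). Zfp69, a zinc finger gene, averaged 0.333 ± 0.15 against 1.02 ± 0.279 CPM (-1.58 ± 0.41, adjusted p = 0.00493). Dpp4, the protease that cuts incretins, averaged 116 ± 19.6 against 202 ± 22 CPM (-0.8 ± 0.2, adjusted p = 0.00394, and 0.189 with library totals). Ifi202b averaged 0.844 ± 0.246 against 0.368 ± 0.121 CPM and was not called (adjusted p = 0.201). Nnt, a mitochondrial transhydrogenase, overlapped (-0.16 ± 0.13, adjusted p = 0.353), and its sign turned with library totals (0.41, adjusted p = 0.0129).

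Bile acid genes had 4 higher and 18 lower of 35 tested (10 and 10 with library totals, and 51.4% lower with TMM). The part of abundance in this count was not tested. Cyp7a1, the first and rate-limiting enzyme of the classical route, measured 64.2, 57.4 and 140.0 CPM against 102, 90.8 and 168 CPM, with overlap (adjusted p = 0.602). Cyp8b1, which makes cholic acid, measured 133, 106 and 233 CPM against 514, 534 and 922 CPM (-2.06 ± 0.38, adjusted p = 0.000267). Abcb1a, an efflux pump of the canalicular side, averaged 9.18 ± 1.11 against 56.6 ± 9.55 CPM (-2.62 ± 0.23, adjusted p = 8.36e-09), and WSB/EiJ was the highest of the 9 strains. Its counts were not whole in any of the 6 libraries. Akr1c6, a hydroxysteroid dehydrogenase, averaged 852 ± 69.3 against 352 ± 66.9 CPM (1.27 ± 0.25, adjusted p = 0.000521). The number of higher members was 1 or 2 without NZO/HlLtJ replicate 2 or 3 or WSB/EiJ replicate 2 or 3.

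Cytochrome P450 genes, the first phase of drug and steroid metabolism, had 4 higher and 33 lower of 65 tested (13 and 18 with library totals), 50.8% lower against 18.1% of all genes. Cyp3a59 was the largest increase after Cyp3a41b, at 39.4, 56 and 61.5 CPM against 1.35, 1.29 and 1.29 CPM (5.31 ± 0.34, adjusted p = 2.34e-11). WSB/EiJ had the lowest Cyp3a59 of the 9 strains, and its counts were not whole in any of the 6 libraries. Beside Cyp2b19, Cyp39a1, Cyp17a1 and Cyp2c23 above, the pericentral Cyp2c29 averaged 2935 ± 829 against 7973 ± 2833 CPM (adjusted p = 0.00144). Cyp4a32, an omega-hydroxylase of fatty acids, measured 7.87, 7.21 and 12 CPM against 29.8, 29.4 and 86.8 CPM (-2.43 ± 0.36, adjusted p = 1.58e-05, and -1.71 without WSB/EiJ replicate 4). Leaving out any 1 library gave 24 to 32 lower members. The most abundant genes of all kinds were mostly lower too, and the part of abundance was not tested.

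Conjugation enzymes, which attach sulfate, glucuronic acid or glutathione, had 10 higher and 19 lower of 54 tested (19 and 9 with library totals). Sult1c2 averaged 3.58 ± 0.624 against 0.456 ± 0.0513 CPM (adjusted p = 4.44e-07). Sult1e1, which inactivates estrogen, measured 5.22, 6.96 and 43.2 CPM against 67.8, 136 and 116 CPM (-2.54 ± 0.58, adjusted p = 0.00177, and -4.13 without NZO/HlLtJ replicate 3). Gstm3, a glutathione transferase, measured 0.612, 1.04 and 0.609 CPM against 9.9, 22.7 and 84.5 CPM (-5.67 ± 0.58, adjusted p = 8.21e-08, and -4.42 without WSB/EiJ replicate 4). Of 18 carboxylesterases tested, which hydrolyse esters and lipids, 1 was higher and 6 lower (3 and 3 with library totals). The increase was Ces1g (508 ± 27.1 against 185 ± 60.2 CPM, adjusted p = 0.000307), and Ces1f was lower (325 ± 22.1 against 956 ± 110.0 CPM, adjusted p = 3.21e-06).

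Hepatocytes secrete most complement, coagulation and acute phase proteins. Complement and coagulation factors had 4 higher and 37 lower of 55 tested, 67.3% lower against 18.1% of all genes (7 and 16 with library totals), and 32 to 39 were lower with any 1 library left out. The most abundant genes were mostly lower as well, and the part of abundance in this count was not tested. C1ra, a protease of the first complement component, measured 247, 241 and 243 CPM against 718, 746 and 584 CPM (-1.49 ± 0.21, adjusted p = 9.36e-06). Its copy C1rb measured 0.153, 0.101 and 0.225 CPM against 23.1, 27.5 and 25.7 CPM (-7.32 ± 0.41, adjusted p = 1.6e-12). The neighbouring C1s2 measured 0.051, 0.202 and 0.0962 CPM against 46.5, 53.1 and 48.5 CPM (-8.65 ± 0.28, adjusted p = 8.27e-17, and -9.35 without NZO/HlLtJ replicate 2). The 2 copies lie at chr6:124570294-124581171 and chr6:124624625-124636085, their counts were not whole in any of the 6 libraries, and A/J had levels near those of WSB/EiJ (22 and 45.5 CPM). Summed over copies, C1ra and C1rb averaged 244 ± 3.47 against 708 ± 86.6 CPM and C1s1 and C1s2 311 ± 9.93 against 559 ± 42 CPM. C1s1 alone was not called with library totals (-0.14, adjusted p = 0.373). C9, of the membrane attack complex, was higher (249 ± 20.0 against 138 ± 39.1 CPM, adjusted p = 0.0124), but not without WSB/EiJ replicate 4 (0.0763). Cfhr3, a factor H-related gene, averaged 1.77 ± 0.545 against 0.143 ± 0.0523 CPM (adjusted p = 2.11e-05). Without that library 2 of the list were higher.

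Acute phase genes, made under the signal of interleukin 6, had 1 higher and 20 lower of 39 tested (6 and 16 with library totals, and 0 higher without NZO/HlLtJ replicate 2 or WSB/EiJ replicate 2 or 3). Hp, haptoglobin, measured 1835, 1605 and 1730.0 CPM against 3266, 4261 and 10918 CPM. WSB/EiJ replicate 4, the library high in Lcn2, was also the highest here, and the log2 fold change of -1.84 ± 0.35 (adjusted p = 0.000363) was -1.13 (0.00653) without it. Hepatokines, the liver's other secreted signals, had 6 higher and 14 lower of 35 tested (8 and 10 with library totals), and 2 were higher without NZO/HlLtJ replicate 1 or WSB/EiJ replicate 4.

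Hepcidin, the hormone that limits iron uptake, has 2 gene copies in the mouse. It blocks the iron exporter ferroportin (Slc40a1). Hamp (chr7:30942368-30944032) measured 127, 127 and 93.4 CPM against 721, 1613 and 748 CPM (-3.15 ± 0.4, adjusted p = 1.9e-06), and Hamp2 (chr7:30922372-30924681) 1870.0, 2211 and 2265 CPM against 104, 224 and 186 CPM (3.63 ± 0.41, adjusted p = 3.36e-07). NZO/HlLtJ had the lowest Hamp level of the 9 strains. The counts of both genes were not whole in any of the 6 libraries, so the split between the copies is uncertain, and their sum averaged 2232 ± 203 against 1199 ± 555 CPM with no overlap. Slc40a1 averaged 113 ± 23.6 against 354 ± 90.0 CPM (-1.64 ± 0.26, adjusted p = 3.94e-05). It is also made by Kupffer cells; the other 15 Kupffer markers overlapped between the strains, as given above, and their part was not tested. Alad, of heme synthesis, averaged 213 ± 14.2 against 66.8 ± 11.1 CPM (1.67 ± 0.17, adjusted p = 7.19e-08). Of 37 tested genes of iron, heme and metals, 6 were higher and 14 lower (12 and 7 with library totals).

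The liver lobule runs from the periportal zone, with urea and glucose synthesis, to the pericentral zone, with glutamine synthesis and P450 enzymes. Of 32 periportal markers tested, 25 were lower (78.1%, against 18.1% of all genes), 0 higher, and 16 lower and 0 higher with library totals. In edgeR 0 members were higher at an unadjusted p under 0.05 as well, and DESeq2 called 26 lower and 0 higher. Leaving out any 1 library gave 21 to 24 lower. Of all genes of 1000 CPM or more 91 of 139 were lower as well, and the part of abundance in the periportal count was not tested. Pericentral markers had 7 higher and 6 lower of 28 (14 and 1 with library totals), with 3 lower without NZO/HlLtJ replicate 1 or WSB/EiJ replicate 3, and 4 and 3 with Kupffer and endothelial covariates. Glul, glutamine synthetase of the cells around the central vein, measured 297, 255 and 286 CPM against 124, 93.7 and 59.9 CPM (1.59 ± 0.39, adjusted p = 0.00328). Oat, of the same cells, averaged 599 ± 153 against 150.0 ± 20.8 CPM (2.0 ± 0.35, adjusted p = 0.000116). Sds, a periportal serine dehydratase, averaged 117 ± 28.9 against 295 ± 71.3 CPM (adjusted p = 0.00126), and Prodh2, of hydroxyproline breakdown, 150.0 ± 6.92 against 339 ± 22 CPM (adjusted p = 0.000146). Amino acid and urea genes as a list had 10 higher and 15 lower of 55 tested (25 and 6 with library totals).

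Antioxidant genes had 14 higher and 3 lower of 35 tested, 40.0% higher against 15.4% of all genes (26 and 0 with library totals), with 8 higher without NZO/HlLtJ replicate 2 and 9 without WSB/EiJ replicate 3. The fit with Kupffer and endothelial covariates called 8 higher and 4 lower. Sod1, superoxide dismutase, averaged 402 ± 36.5 against 212 ± 35.6 CPM (adjusted p = 0.00174), and Gclc, the first enzyme of glutathione synthesis, 248 ± 28 against 136 ± 15.8 CPM (adjusted p = 0.00176). The regulator Nfe2l2 (NRF2) and its target Nqo1 were lower with TMM (-0.87 ± 0.15, adjusted p = 8.22e-05, and -0.91 ± 0.18, adjusted p = 0.000543) and not called with library totals (adjusted p = 0.179 and 0.216). Protein folding stress genes had 1 higher and 15 lower of 37 (8 and 5 with library totals), 8 lower without NZO/HlLtJ replicate 1, 3 higher without WSB/EiJ replicate 2, and 0 higher without NZO/HlLtJ replicate 1 or 2 or WSB/EiJ replicate 3 or 4. With the covariates 7 of them were lower. The inducible heat shock genes Hspa1a and Hspa1b, near-identical copies, summed to 4.99, 7.26 and 13.3 CPM against 170.0, 72 and 195 CPM. Hspa1a alone had a log2 fold change of -4.6 ± 0.78 (adjusted p = 9.57e-05). Oxidative phosphorylation had 5 higher and 7 lower of 77 tested, both below the background, and 53 and 0 with library totals. Ndufs4, of complex I, averaged 31.9 ± 1.18 against 18.9 ± 4.23 CPM (adjusted p = 0.00682). Without 1 library this list had 3 to 8 higher and 3 to 6 lower, with WSB/EiJ replicates 3 and 4 at the ends for the first and NZO/HlLtJ replicates 1 and 2 and WSB/EiJ replicate 4 at the low end of the second.

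Major urinary proteins carry pheromones and are made in the liver from a cluster of near-identical genes on chromosome 4. Of 20 tested, 9 were higher and 6 lower under both scalings. Mup19 (chr4:61778324-61782269) measured 2.17, 1.82 and 0.192 CPM against 11081, 9811 and 4000.0 CPM (-12.5 ± 1.19, adjusted p = 2.29e-08). Mup10 measured 9052, 8925 and 8590.0 CPM against 108, 107 and 104 CPM (6.38 ± 0.41, adjusted p = 2.34e-11). Mup2 averaged 3054 ± 348 against 7.58 ± 2.83 CPM. The counts of these 3 were not whole in any of the 6 libraries. Summed over all 22 genes in the table the strains were closer, 19884, 19890 and 21244 CPM against 18425, 15569 and 6807 CPM, a mean ratio of 1.5. Of 39 sex-biased liver genes tested, 4 were higher and 10 lower (11 and 7 with library totals). Hsd3b5, a male-biased steroid reductase, averaged 5.83 ± 1.1 against 0.364 ± 0.455 CPM (3.97 ± 0.9, adjusted p = 0.00165, and 5.71 without WSB/EiJ replicate 2). Cyp3a44, a female-biased P450, averaged 69.6 ± 31.9 against 412 ± 190.0 CPM (adjusted p = 0.00139).

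Some of the widest differences lay in genes with copies elsewhere in the genome, and in most of those given here one strain was high in one copy and the other strain in another. Rps2, a ribosomal protein, measured 383, 340.0 and 365 CPM against 4.68, 3.43 and 4.51 CPM (6.43 ± 0.22, adjusted p = 1.3e-16). Its pseudogene Rps2-ps13, named after its values were seen, measured 1.07, 0.43 and 0.353 CPM against 217, 150.0 and 238 CPM. Summed over Rps2 and its 8 named pseudogenes, the strains averaged 389 ± 19 against 238 ± 51.6 CPM, a ratio of 1.63. Pgk1, of glycolysis, averaged 16.9 ± 2.22 against 251 ± 82.2 CPM, and its retrotransposed copy Pgk1-rs7, named afterwards, 144 ± 16 against 0.148 ± 0.119 CPM. Their sum averaged 161 ± 14.8 against 251 ± 82.3 CPM. Ftl1, the ferritin light chain, and Ftl1-ps1 summed to 1947 ± 71.7 against 1415 ± 238 CPM, although Ftl1-ps1 alone averaged 3.36 ± 1.16 against 676 ± 107 CPM. The Cyp3a41 copies did not differ in opposite directions: Cyp3a41a averaged 3864 ± 324 against 2456 ± 718 CPM and was not called (adjusted p = 0.329), and Cyp3a41b averaged 261 ± 80.1 against 3.12 ± 0.631 CPM, and with Cyp3a41a the sums were 4125 ± 366 against 2459 ± 718 CPM. Single-copy values of these genes are uncertain, since reads of a strain that differs from the reference at a copy can be counted to the wrong one.

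**Figure D5:**
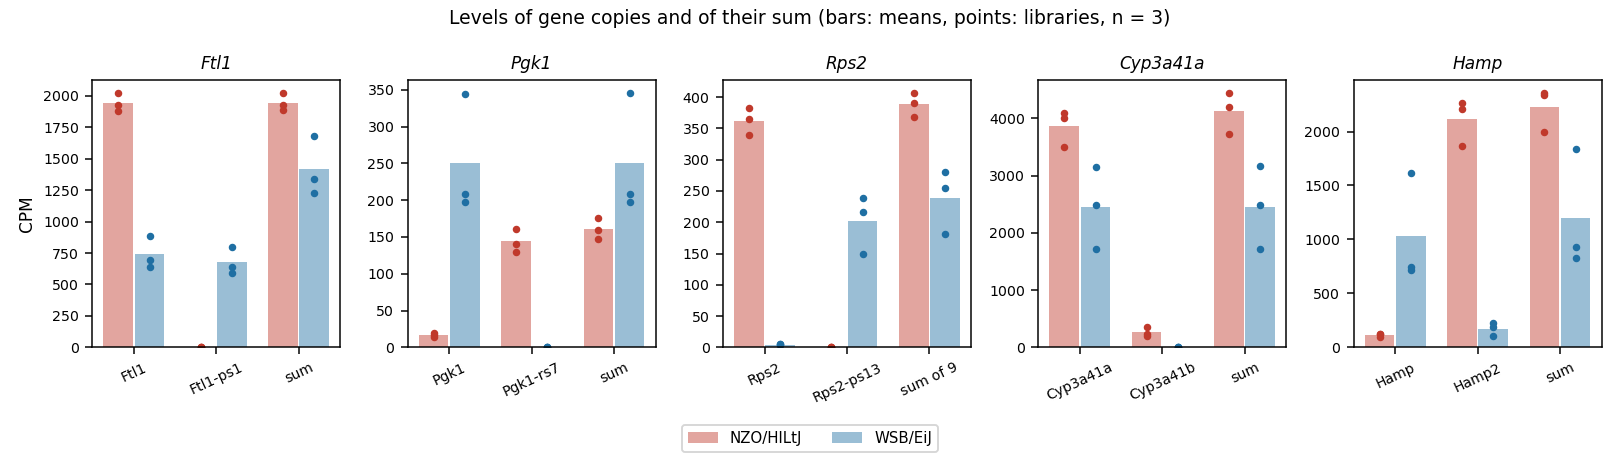
CPM (y axis, linear from 0, own scale in each panel) of single copies and of their sum for 5 gene families, with bars as means and points as libraries (n = 3, NZO/HlLtJ red, WSB/EiJ blue). The copies differ widely, in opposite directions for 4 of the 5 families, while the sums differ by factors of 1.38 to 1.86 in 4 and by 1.56 the other way for Pgk1.

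Cwc22, a splicing factor (chr2:77881159-77946375), lies in the R2d segment, which is known to be present in extra copies in WSB/EiJ. It measured 6.45, 7.19 and 6.29 CPM in NZO/HlLtJ and 243, 272 and 268 CPM in WSB/EiJ (-5.29 ± 0.2, adjusted p = 6.8e-16). The ratio was 39.3, and the other 7 strains averaged 4.57 to 7.59 CPM. Gm13691 and 6 neighbours with like names summed to 0 CPM in every NZO/HlLtJ library and to 61.4, 66.4 and 69.1 CPM in WSB/EiJ.

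Genes of histone and DNA methylation had 9 higher and 3 lower of 43 tested (23 and 0 with library totals), 20.9% higher against 15.4% of all genes. Dnmt3b, which sets new DNA methylation, averaged 5.68 ± 1.1 against 2.48 ± 1.22 CPM (1.19 ± 0.34, adjusted p = 0.00871), but had 0.85 (0.0557) without WSB/EiJ replicate 4. Mbd2, a reader of methylated DNA, averaged 21.4 ± 0.586 against 13.9 ± 1.66 CPM (0.62 ± 0.14, adjusted p = 0.00178). Kmt2a, a histone methyltransferase, was lower with TMM (-0.9 ± 0.21, adjusted p = 0.00219) and not called with library totals (0.176). The list had 4 or 5 higher members without NZO/HlLtJ replicate 1 or 2 or WSB/EiJ replicate 3 or 4, and 4 higher and 1 lower with Kupffer and endothelial covariates. The number lower was 1 without NZO/HlLtJ replicate 1 or 2 or WSB/EiJ replicate 2.

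The label of hepatocytes was checked against 12 hepatocyte markers, which were all detected and summed to 126839 to 132772 CPM in NZO/HlLtJ and 242328 to 268844 CPM in WSB/EiJ with 0 higher and 7 lower in edgeR (0 and 9 at an unadjusted p under 0.05, 0 and 8 in DESeq2, 1 and 3 with library totals). Other liver cells were present at low levels. The 16 endothelial markers summed to 81.7 to 138 CPM against 180 to 238 CPM, with 1 higher and 7 lower of 16 tested (1 and 2 with library totals). The 12 bile duct markers summed to 50.6 to 65.8 against 35.8 to 61.7 CPM (13.2 to 20.5 against 28.1 to 55.5 CPM without Anxa5, their most abundant). Of 5 bile duct markers tested 3 were higher and 1, Prom1, was lower under both scalings, and 1 was higher without NZO/HlLtJ replicate 1. Of the endothelial markers 1 to 3 were lower without NZO/HlLtJ replicate 1 or 2 or WSB/EiJ replicate 2 or 3. The part of these cells in the results above was not tested, beyond the covariate fit, in which 1410 genes were higher and 1968 lower.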

How the data were processed

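RNA of hepatocytes of female mice was extracted with RNeasy columns and DNase, polyadenylated RNA was selected, and libraries were made with the TruSeq v2 kit, per the labels' protocols. The authors deposited 1 table of expected counts (estimated counts per Ensembl gene, not scaled) for 43346 genes and 27 libraries, of which 14.7% of values were not whole. The submitters' processing notes name FastQC 0.11.5, DESeq2, GRCm38 and mm10. The aligner, the counting program, strand use and whether reads were aligned to the genome of each strain are not given in the sources used here. The last can lower counts of a strain that differs from the reference.

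Counts were rounded to whole numbers. Symbols and coordinates came from GENCODE M21 (GRCm38), which named 42462 genes, and genes without a symbol held 0.0579% of the counts. Genes were kept with filterByExpr and tested with edgeR 4.0.16, run under R 4.3.3 beside limma 3.58.1: TMM factors, 1 quasi-likelihood fit over all 27 libraries with strain as the factor, the contrast NZO/HlLtJ minus WSB/EiJ, and Benjamini-Hochberg adjustment over the 14482 genes, called under 0.05. A fitted fold change depends on a prior count where a strain is near 0, so genes with 1 to 3 counts in a strain are given as a ratio with an exact 95% interval, and Srgap3, Mx1, Mx2, Folr2 and Dzip1l, with 4 to 8 counts, have that ratio too. 1 count was worth 0.0253 to 0.046 CPM. Intervals cover counting error only.

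The comparison, its gene lists and the genes always named were chosen with earlier results of these data known. The text names the 8 largest increases and 8 largest decreases among called genes whose strains did not overlap and whose higher strain averaged at least 10 CPM, the 5 largest each way among genes averaging at least 200 CPM (in both passing over predicted genes, pseudogenes by type or name, other noncoding types and major urinary proteins), up to 3 each way per list with at least 1 CPM, a fixed set whatever its values (some of its genes are not reported here), and cell type markers; other genes are said to be named after their values were seen, which holds also for the gene copies Ftl1-ps1, Cyp3a41a and C1s1. Alternatives were DESeq2 1.42.0, other scalings and filters, unrounded counts, the 6 libraries alone, a replicate block, removal of a GC trend, Kupffer and endothelial covariates, and leaving out each library.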

Additional observations from a re-analysis of the deposited data

How the results depend on the processing

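With library totals in place of TMM factors, an alternative chosen after seeing the data, 7790 genes were called, 3784 of them at least 2-fold, with 6708 higher and 1082 lower in NZO/HlLtJ. Under that scaling Acaca turned from -0.54 to 0.03 (adjusted p = 0.924) and Nnt from -0.16 to 0.41 (adjusted p = 0.0129). With Kupffer and endothelial covariates 3378 genes were called, and the number higher fell to 1410; the cause was not tested. With these covariates the number higher was 4 for cholesterol synthesis (1 lower), 3 for glucose handling, 1 for bile acids, 2 for cytochrome P450, 3 for acute phase, 2 for oxidative phosphorylation, 3 for cell cycle and 0 for protein folding stress genes. In every other alternative that kept all 6 libraries, the counts of calls over all genes stayed within 1.5 times: DESeq2 called 5163, median-of-ratios factors 4855, no filter 4581, a mean of at least 10 counts 4660, unrounded counts 4853, removal of a GC trend 5072 and the 6 libraries alone 5482. Leaving out 1 library gave 3398 to 4480 genes called, 1783 to 2304 at least 2-fold, 1514 to 2009 higher and 1882 to 2471 lower. Of 144 called genes checked, 116 kept their direction and their call in all 16 alternatives.

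With the replicate block 3978 genes were called, 1731 higher and 2247 lower, and 1992 at least 2-fold. The strains share the numbers 2 and 3 only, and same-numbered libraries correlated at 0.05 and 0.03 in their deviations. Libraries of unlike number correlated at -0.14 to 0.13. With so few pairs these values cannot show whether a number marks a shared day or litter, which the labels do not say. Under the block 1 gene of the insulin and IGF axis was higher and 1 of cholesterol synthesis lower, in place of 3 each. The clock list had 4 higher and 4 lower members, and Arntl (adjusted p = 0.0692), Cry1 (0.0638), Dbp (0.0794), Ciart (0.101), Per3 (0.141) and Tef (0.0828) were not called; nor were Acaca (0.0806) and Top2a (0.072). Depth limits what can be said of genes near 0: a level under about 3 counts per library could not be told from absence.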

Other observations

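Some genes were on in one strain, with a mean of at least 5 CPM, and at most 3 counts a library in the other. Of these 9 were on in NZO/HlLtJ and 19 in WSB/EiJ, and most are predicted genes or pseudogenes whose counts were not whole. A4gnt, a glycosyltransferase of mucins, and its neighbour Dzip1l on chromosome 9, both named after their values were seen, had whole counts. A4gnt measured 5.17, 5.39 and 12.5 CPM in NZO/HlLtJ and 0 counts in WSB/EiJ, at least 59.9-fold higher against a floor of 3 counts per library. Dzip1l, a protein of the primary cilium, measured 6.27, 6.61 and 7.7 CPM against 0.0, 0.121 and 0.0921 CPM, a ratio of 96.3 (95% interval 41.3 to 297). Gm7336, Gm10359 and Gm12671, pseudogenes on chromosomes 7, 5 and 4, shared identical values, 223 CPM on average in WSB/EiJ and 0 counts in NZO/HlLtJ.

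Cell cycle genes had 5 higher and 2 lower of 16 tested (9 and 0 with library totals), with 3 higher when NZO/HlLtJ replicate 1 or 2 or WSB/EiJ replicate 3 or 4 was left out and 8 without WSB/EiJ replicate 2. The number lower was 0 or 1 with any 1 library left out. Top2a, which untangles chromosomes, averaged 1.94 against 0.348 CPM (2.46, adjusted p = 0.0232, but 0.0642 to 0.113 without NZO/HlLtJ replicate 1 or 2 or WSB/EiJ replicate 3 or 4, 0.0644 with the 6 libraries alone and 0.127 with Kupffer and endothelial covariates), and Mcm2, of the replication helicase, 3.78 against 1.19 CPM (adjusted p = 0.000143). Without WSB/EiJ replicate 2 the log2 fold change of Top2a was 3.33 (adjusted p = 0.018). Ccnd1, cyclin D1, averaged 12.8 against 34.1 CPM (adjusted p = 0.0451), but was not called without NZO/HlLtJ replicate 1 or 3 or WSB/EiJ replicate 2 or 3 (0.0658 to 0.233) with the 6 libraries alone (0.156) or with library totals (0.221). Single markers of other cells also differed with TMM, each against the direction of most called markers of its list. Folr2, the 1 Kupffer marker called higher against 2 lower, averaged 1.81 against 0.0582 CPM (adjusted p = 8.55e-05, a ratio of 31.9 with a 95% interval of 12.4 to 117). Lyve1, the 1 endothelial marker called higher against 7 lower, averaged 1.61 against 0.325 CPM (adjusted p = 0.0244). Prom1, the 1 bile duct marker called lower against 3 higher, averaged 2.68 against 31.2 CPM (-3.52, adjusted p = 0.00032).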
